A study of Mus musculus with 6 samples.

Results

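The transcriptome of unstimulated naïve CD4 T cells was measured in the 3 control libraries of a series of 6, selected by their group label alone. Each library held rRNA-depleted total RNA of cells sorted by flow cytometry from lymph nodes of male Rnmt fl/fl mice that lacked the Cd4-driven Cre transgene, on a C57B6/J background. Exon 3 of Rnmt was thus flanked by loxP sites in all 3 controls but was not deleted, and no control without loxP sites was used here. Ages were not given in the sources used here. The sort gate was TCRb+, CD4+, CD62L+, CD44- and DAPI-, which selects live naïve CD4 cells without excluding CD25+ regulatory cells. The labels number the controls 1 to 3 and do not name the animals. A figure legend of the paper counts as many control mice as control libraries, so each control is taken as a separate mouse. The spread between controls may thus hold differences between animals as well as technical ones, which were not separated.

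Naïve CD4 T cells are mature helper T cells that have not yet met their antigen. They circulate between blood and lymph nodes, which they enter with the help of CCR7 and leave along a gradient of the lipid sphingosine 1-phosphate, and they survive on interleukin 7 and on weak signals through the T cell receptor (TCR). They are small, do not divide and hold little RNA, yet they carry the mRNAs of the translation machinery that is put to use on activation.

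Controls 1, 2 and 3 held 9323022, 10222925 and 9265658 fragments that were counted in the sense direction of a gene. At this depth 1 count was worth 0.112, 0.0957 and 0.105 CPM (counts per gene scaled to a common library total), and a gene at 0 counts could have been present at up to 0.337, 0.287 and 0.316 CPM, the worth of 3 counts, from counting error alone. CPM values were scaled with TMM factors of 0.954, 1.02 and 1.03, and RPKM values are these CPM per kilobase of annotated exon. CPM is used for shares of the library and for comparing libraries, RPKM for comparing genes, and values are means ± SD over the 3 controls (n = 3) unless each library is given. The share of uniquely mapped fragments outside annotated exons of the same strand was 36.1, 39.7 and 46.1% in controls 1, 2 and 3. Fragments on the strand opposite to an exon are part of this share.

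The 5 markers fixed for these cells were abundant in every control. Cd4 (ENSMUSG00000023274, chr6:124864692-124888221), the coreceptor for MHC class II, held 658, 631 and 629 CPM in controls 1, 2 and 3, which came to 159 ± 4.03 RPKM and rank 141 among protein-coding genes. Tcf7 (ENSMUSG00000000782, chr11:52252371-52283014), a transcription factor of naïve and memory precursor cells, held 859, 886 and 819 CPM and ranked 77. Its relative Lef1 (ENSMUSG00000027985, chr3:131110471-131224356) held 777, 808 and 841 CPM and ranked 259. The 3 libraries lay close together for these genes, with coefficients of variation (CV, SD over mean) of 2.54%, 3.97% and 3.96%. Ccr7 (ENSMUSG00000037944, chr11:99144196-99155077), the chemokine receptor for entry into lymph nodes, held 419, 402 and 343 CPM and ranked 127. Il7r (ENSMUSG00000003882, chr15:9505788-9530176), the interleukin 7 receptor chain, held 364, 370.0 and 320.4 CPM and ranked 317. Control 3 was the lowest library for both receptors. In a bulk sample, fewer cells with a transcript cannot be told apart from less of that transcript per cell, here and in all that follows.

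**Figure D1:**
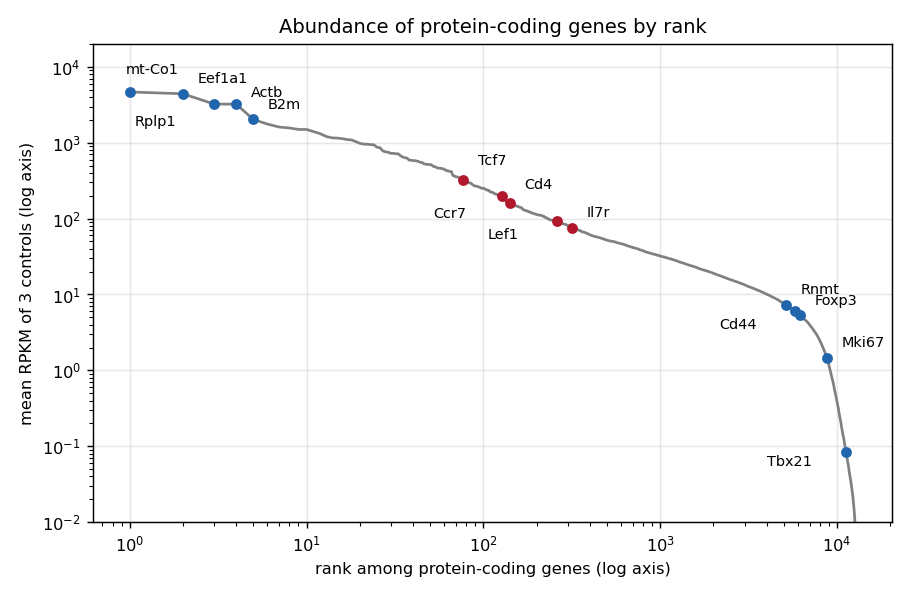
Mean RPKM of the 3 controls (vertical axis, log scale) against rank among protein-coding genes (horizontal axis, log scale). Red points mark the 5 naïve CD4 markers, which lie between rank 77 (Tcf7) and rank 317 (Il7r), and blue points mark other genes of the text, from mt-Co1 at rank 1 to Tbx21 at rank 11302.

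Of the 46983 genes in the tables, 15399 had a count in every control and 23116 had none in any. Above 1 CPM in every control lay 11607 genes, of which 9973 were protein-coding, 46.3% of the 21560 protein-coding genes in the tables. Above 100 CPM lay 1795 genes, and above 1000 CPM only 64. The median protein-coding gene above 1 CPM held 33.3 CPM or 7.67 RPKM. Among protein-coding counts, 773, 817 and 826 genes made up the upper 50% in controls 1, 2 and 3. The 100 protein-coding genes with the highest RPKM held 35.4 ± 1.90% of all protein-coding RPKM, the 10 highest 12.03 ± 0.574%.

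Protein-coding genes took 78.9, 82.4 and 81.8% of the counts in controls 1, 2 and 3. Genes annotated as long non-coding RNA (lncRNA) took 6.14 ± 0.375%, or 1.79 ± 0.230% without Gm26917 and Gm42418, which lie beside or over a ribosomal RNA-related locus, the mitochondrial ribosomal RNAs 3.71 ± 0.196%, and small non-coding RNAs 7.81 ± 1.87%. The Wilson 95% interval of the protein-coding share in control 1, which covers counting error only, ran from 78.8 to 78.9%, so that the differences between libraries were far larger than counting error. Control 1 stood apart with the lowest protein-coding share and the highest share of small non-coding RNA, 9.96% beside 6.76 and 6.69% in controls 2 and 3.

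**Figure D2:**
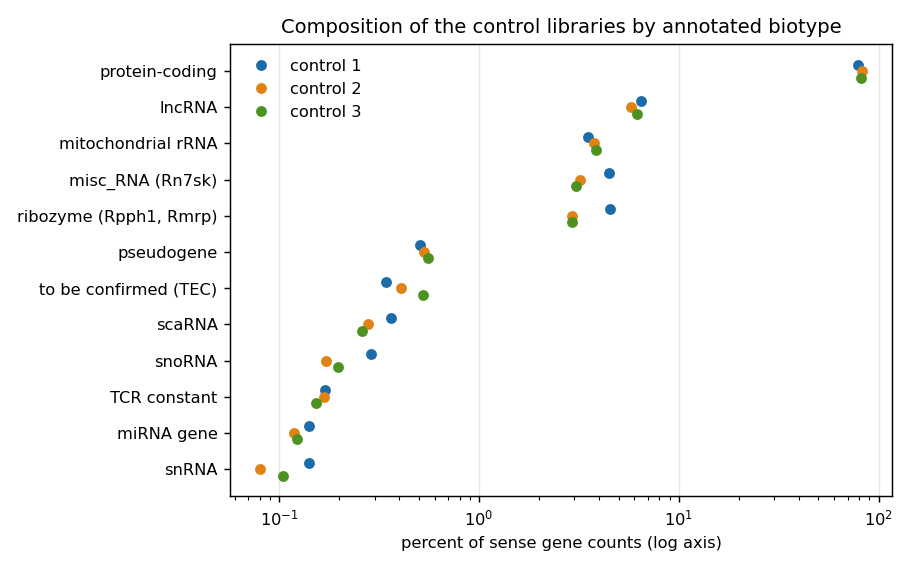
Percent of sense gene counts (horizontal axis, log scale) taken by each annotated biotype in controls 1, 2 and 3. Protein-coding genes hold 78.9 to 82.4% in each library, while ribozyme, misc_RNA, scaRNA, snoRNA and snRNA genes sit highest in control 1 and TEC loci, gene models still awaiting experimental evidence, highest in control 3.

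The 10 genes with the largest share of the counts held 18.7 ± 1.88% together, and 7 of them were non-coding. They were Gm26917 (42459 CPM), Rn7sk (36000.3), mt-Rnr2 (33485), Rpph1 (26831), Eef1a1 (11007), Malat1 (10193), Actb (8629), Rmrp (7901), mt-Co1 (7205) and mt-Rnr1 (3604). Gm26917 is annotated as a lncRNA on chromosome 17 and ends 12 bases before a locus that RefSeq names Rn18s-rs5, an 18S ribosomal RNA-related sequence. Gm42418, another lncRNA of the annotation at 1223 CPM, overlaps that RefSeq locus by 1245 bases. Whether counts on both loci hold ribosomal RNA that the depletion left was not tested. Next among the lncRNAs came Malat1, which stays in the nucleus, at 8707, 10412 and 11459.8 CPM in controls 1, 2 and 3. Malat1 was lowest in control 1 and highest in control 3. The other lncRNAs among the 10 largest were Kcnq1ot1 (354 CPM), 2010016I18Rik (323), 1700020I14Rik (239), Neat1 (181), 1810026B05Rik (174), Tug1 (164) and Cct6a (159). Kcnq1ot1 lies at 3.81 RPKM because its annotated exon spans 93092 bases, and Cct6a, which encodes a chaperonin subunit, is listed among non-coding genes by its biotype in the annotation only.

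Rn7sk, Rpph1 and Rmrp led the small RNAs and are all made by RNA polymerase III. Rn7sk encodes the 7SK RNA that holds the elongation factor P-TEFb inactive, Rpph1 the RNA of ribonuclease P, which trims the leader of transfer RNAs, and Rmrp the RNA of ribonuclease MRP, which acts in ribosomal RNA processing. Their first 100 bases are shown because these 3 genes alone supplied most of the small RNA counts. They were read from GENCODE vM21 transcripts on GRCm38.
Rn7sk (chr9:78175303-78175633, minus strand, 331 bases): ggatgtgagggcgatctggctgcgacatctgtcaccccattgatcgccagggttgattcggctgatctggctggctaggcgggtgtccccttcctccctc
Rpph1 (chr14:50807449-50807767, minus strand, 319 bases): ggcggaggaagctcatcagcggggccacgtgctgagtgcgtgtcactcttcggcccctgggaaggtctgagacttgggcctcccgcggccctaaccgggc
Rmrp (chr4:43492788-43493058, minus strand, 271 bases): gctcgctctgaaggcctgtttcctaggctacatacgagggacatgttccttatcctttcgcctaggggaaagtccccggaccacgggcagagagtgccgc

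In controls 1, 2 and 3 Rn7sk held 47005, 31158 and 29837 CPM, Rpph1 36425, 21882 and 22186 CPM and Rmrp 10862, 6579 and 6262 CPM. Control 1 was the highest library for each, while controls 2 and 3 lay close together. The 9 listed polymerase III genes summed to 94341, 59652 and 58320 CPM. Terc, the telomerase RNA, which is a polymerase II transcript counted with them in that list, held 30.4, 22.5 and 22.6 CPM, and the vault RNA Vaultrc5 held 12.3, 6.99 and 7.57 CPM. The signal recognition particle RNA genes Rn7s1, Rn7s2 and Rn7s6 averaged 0.951, 1.99 and 1.44 CPM, and their near-identical copies in the genome make these values uncertain, since fragments that mapped to several places were not counted.

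Among small nuclear, nucleolar and Cajal body RNAs and miRNAs, few of the annotated genes were detected. Of 1507 snoRNA genes, which guide chemical modification of ribosomal RNA, 61 passed 1 CPM in every control. The corresponding numbers were 11 of 51 scaRNA genes, 21 of 1383 snRNA genes and 19 of 2202 miRNA genes. The largest counts were those of Gm22009 (1465, 1292 and 1075 CPM), Gm23935 (annotated as a miRNA, 1298, 983 and 1008 CPM), Gm22442 (972, 610.4 and 584 CPM), Snord17 (1007, 508 and 627 CPM), Scarna2 (554, 357 and 349 CPM), Snora73b (535, 307 and 322 CPM) and Gm25395 (518, 259 and 313 CPM). Each of these 7 was highest in control 1. Many such RNAs are shorter than a sequenced fragment, so that their values show recovery in these libraries and not their abundance in the cell. Of the lncRNAs that host snoRNAs in their introns, 14 of the 16 found passed 1 CPM, led by Gas5 (37.2 RPKM), Epb41l4aos (29.9), Snhg8 (28.5) and Snhg6 (18.2), while Snhg18 had no count. Gas5 is itself a TOP transcript, with a pyrimidine-rich start like that of ribosomal protein mRNAs.

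Genes for ribosomal proteins were the most abundant protein-coding family. All 79 listed genes of the cytoplasmic ribosome passed 1 CPM, and they held 8.76, 7.74 and 7.18% of all counts in controls 1, 2 and 3. Per length, they held 22.2 ± 2.02% of protein-coding RPKM. The median was 420.3 RPKM over 47 large subunit genes and 561 RPKM over 32 small subunit genes, beside 7.67 RPKM over all protein-coding genes above 1 CPM. In the large subunit, the stalk protein gene Rplp1 held 3230.1 ± 568 RPKM, followed by Rpl17 (1495), Rplp0 (1494) and Rpl32 (1201). In the small subunit Rps15 held 1761 ± 358 RPKM, followed by Rps3a1 (1608) and Rps27 (1563). The genes thus did not share one level, although most of their proteins enter the ribosome in equal numbers. Rpl24 stood far below most of the family at 2.41 RPKM, beside 127 for Rpl27, and these genes were singled out after their values were seen. Another member, at the family minimum, held 1.51 RPKM. Ribosomal protein genes have many processed copies in the genome, and reads shared with a copy are not counted, so low values in this family are uncertain. Of 258 annotated ribosomal protein pseudogenes, 28 passed 1 CPM, summing to 218 ± 32.2 CPM beside 79172 ± 11336 for the genes.

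Paralogs of ribosomal proteins were unevenly used. Rpl36al (65.4 RPKM), Rpl22l1 (43.6), Rps27l (24.98) and Rpl7l1 (22.1) passed 1 CPM, while Rpl39l, Rps4l and Rpl3l, which are tied to germ cells or muscle, averaged at most 0.878 CPM and Rpl10l had no count. Rpl22l1 stood at 51.5, 36.4 and 42.8 RPKM in controls 1, 2 and 3, beside 194, 157 and 152 RPKM for its paralog Rpl22, which was the higher of both in every library.

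The other listed mRNAs of the translation machinery were also all above 1 CPM (35 of 35) and held 4.34 ± 0.162% of protein-coding RPKM. Eef1a1, the factor that brings aminoacyl-tRNA to the ribosome, held 4873, 4427 and 3946 RPKM in controls 1, 2 and 3, the second highest mean of all protein-coding genes. Eef2, which moves the ribosome along the mRNA, followed at 1033 ± 92.8 RPKM, then Tpt1 at 956 ± 94.1 and the ribosome scaffold Rack1 at 354 ± 47.2. Initiation factors lay much lower: Eif4b held 113 RPKM, the helicases Eif4a2 and Eif4a1 84.6 and 81.0, and the cap-binding protein Eif4e 9.40. Elongation factor mRNA was thus far more abundant than that of the factor that recognises the cap.

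Many of these mRNAs belong to the TOP class, which begins with a run of pyrimidines that ties their translation to mTOR signalling. RefSeq start sites on GRCm38.p6 were found for 58 of the 79 ribosomal protein genes. Within 15 bases on either side of the annotated start, 32 of them (55.2%) held 7 or more consecutive C or T in the sequence of the transcript's strand, beside 21.9% of 7994 protein-coding genes above 1 CPM and 21.3% of all 27025 RefSeq genes with a start. The share was 33.3% of 27 other translation mRNAs and 15.9% of 69 mitochondrial ribosomal protein genes. Among the remaining protein-coding genes it was 20.9% up to 10 RPKM, 22.3% between 10 and 100 RPKM and 32.7% above 100 RPKM. A match is a description of these letters, and RefSeq starts can lie some bases away from the start used in these cells.

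The windows are shown for the 8 translation genes with the highest RPKM that had a RefSeq start, with the immune gene B2m and the actin-binding gene Tmsb4x for contrast. Each runs 5′ to 3′ along the transcript, from 15 bases before the start to the fifteenth base of the transcript, with the longest pyrimidine run in capitals.
Eef1a1 (chr9:78481710-78481739, minus strand): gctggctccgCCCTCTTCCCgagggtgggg
Rps15 (chr10:80292416-80292445, plus strand): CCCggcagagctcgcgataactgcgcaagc
Rps3a1 (chr3:86142654-86142683, minus strand): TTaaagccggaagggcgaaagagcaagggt
Rps27 (chr3:90213634-90213663, minus strand): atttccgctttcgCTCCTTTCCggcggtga
Rplp0 (chr5:115559452-115559481, plus strand): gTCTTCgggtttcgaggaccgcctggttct
Rpl13a (chr7:45128731-45128760, minus strand): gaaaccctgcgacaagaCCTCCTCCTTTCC
Rpl4 (chr9:64173372-64173401, plus strand): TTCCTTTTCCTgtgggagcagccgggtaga
Eef2 (chr10:81176616-81176645, plus strand): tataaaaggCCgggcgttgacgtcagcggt
B2m (chr2:122147672-122147701, plus strand): cctggctggCTCTCatttcagtggctgcta
Tmsb4x (chrX:167209204-167209233, minus strand): cggactacgagtgacatcaCCTCatttgca
The longest run was 13 bases in Rpl13a, 11 in Rpl4, 10 in Eef1a1 and 9 in Rps27. It was 5 in B2m and 4 in Tmsb4x, and in Rps15, Rps3a1, Rplp0 and Eef2 it was also at most 5, so these 6 abundant mRNAs held no run of 7 at the annotated start.

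The genes of the antigen receptor were all expressed. Per length the constant regions came first, with Trbc2 at 974 ± 84.7 RPKM, Trac at 596 ± 79.0 and Trbc1 at 524 ± 42.6, and the signalling chain genes followed with Cd3g at 137 ± 16.2, Cd3d at 118 ± 15.4, Cd247 at 79.5 ± 4.20 and Cd3e at 35.5 ± 2.93 RPKM. Trbc1 and Trbc2 are close in sequence, so their split is uncertain. Of 35 Trbv segments 20 passed 1 CPM, and of 128 Trav segments 46 did. Trbv3 took 12.4, 12.5 and 12.5% of Trbv counts in controls 1, 2 and 3, Trbv15 10.1 ± 1.25%, Trbv13-2 8.71 ± 0.434% and Trbv2 8.62 ± 0.320%. Trbv3 led in every library, while Trbv15, Trbv13-2 and Trbv2 lay close to one another and changed places. Joining segments are shorter than a read, and 50 of 60 Traj segments passed 1 CPM. Their sum was 409, 441 and 533 CPM, highest in control 3, whereas the Trav sum of 221, 207 and 188 CPM was highest in control 1. The Traj sum thus moved with the share of fragments outside exons of the same strand, and the part of that share in it was not tested.

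Signalling genes downstream of the receptor were expressed without exception, 28 of 28 passing 1 CPM with a median of 56.5 RPKM. Dgka, which removes the second messenger diacylglycerol and so limits signalling, led at 238 ± 11.7 RPKM, ahead of the kinase Lck at 210.3 ± 15.6 and the phosphatase Ptprc (CD45) at 177 ± 3.62. The 14 coreceptor and costimulatory genes also all passed, from Cd2 (239 ± 10.6 RPKM), Cd4 (159 ± 4.03), Cd5 (82.8 ± 4.23) and Cd27 (79.1 ± 5.57) down to the inhibitory receptors Ctla4 (9.91) and Pdcd1 (4.01). The costimulatory receptor Cd28 held 46.6 ± 1.33 RPKM and its inducible relative Icos 11.9 ± 0.746.

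Genes of homing and quiescence were expressed without exception, 25 of 25 above 1 CPM with a median of 75.4 RPKM. After Tcf7 at 326 ± 12.9 RPKM came S1pr1, the receptor used to leave the lymph node, at 251 ± 5.94, Slfn2, which is needed for T cell quiescence, at 215 ± 23.2, and Ccr7 at 196 ± 20.2. Klf2, a regulator of S1pr1, held 277, 283 and 236 CPM in controls 1, 2 and 3. Btg1 and Btg2, which promote mRNA deadenylation, held 156 ± 6.36 and 71.7 ± 6.08 RPKM. Among chemokine and lipid receptors 11 of 24 passed 1 CPM, a share near that of all protein-coding genes. S1pr1 and Ccr7 were followed by S1pr4 (55.5 ± 4.59 RPKM) and Gpr183 (42.4 ± 0.975), the receptor for oxysterols, while the inflammatory receptors Cxcr3 and Ccr2 stayed below 1 CPM on average and Cxcr2, Ccr10 and S1pr3 had no count.

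Among lineage transcription factors, 26 of 31 passed 1 CPM. Ets1 held 269 ± 7.42 RPKM, Ikzf1 131 ± 2.81, Bcl11b 81.2 ± 1.29 and Zbtb7b, which fixes the CD4 fate, 38.7 ± 0.408. Gata3, needed by all CD4 cells and later by type 2 helper cells, held 9.51 ± 0.852 RPKM, whereas the master regulators of type 1 helper cells and of innate-like T cells were near the detection limit. Tbx21 held 2, 2 and 2 counts in controls 1, 2 and 3 and Zbtb16 1, 0 and 1. Bcl6 and Maf lay in between, at 23.6 and 8.85 CPM.

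**Figure D3:**
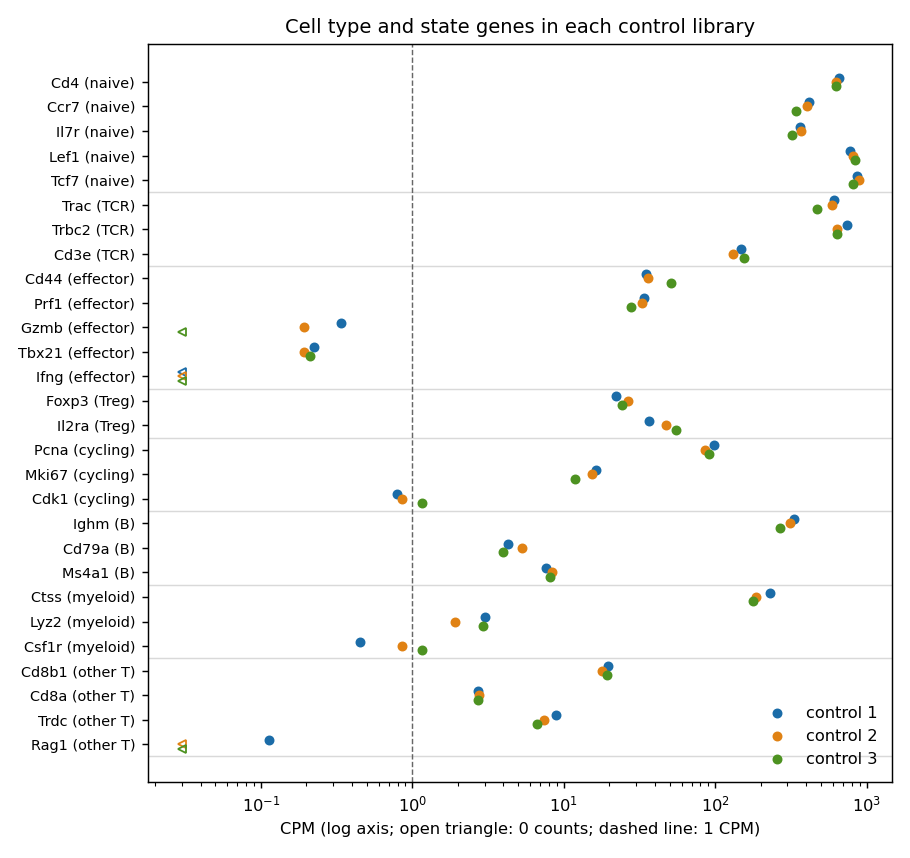
CPM (horizontal axis, log scale) of genes of naïve cells, the T cell receptor, effector cells, regulatory T cells, cycling cells, B cells, myeloid cells and other T cells in controls 1, 2 and 3, with open triangles for 0 counts and a dashed line at 1 CPM. The naïve genes lie at or above 320.4 CPM in each library, while Tbx21 and Gzmb stay under 1 CPM and Ifng has no count.

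Receptors for survival and differentiation cytokines were mostly present, 23 of 28 passing 1 CPM. Il7r led at 75.4 ± 5.82 RPKM, close to Il27ra (67.3 ± 2.38), Tgfbr2 (66.3 ± 1.52) and Il4ra (66.2 ± 1.62). Il7r was the highest of these 4 in every library, while the ranges of the other 3 overlapped. Il6st, the signalling chain for interleukin 6, held 60.6 ± 4.68 RPKM and the shared gamma chain Il2rg 55.1 ± 2.68. Receptors acquired by differentiated cells were low: Il12rb2 held 1, 0 and 0 counts, Il23r 1, 0 and 0 and Il1rl1 3, 8 and 6 in controls 1, 2 and 3. All 19 JAK, STAT and SOCS genes passed 1 CPM, led by the kinase Jak1 (141 ± 3.85 RPKM), the feedback inhibitor Socs3 (52.7 ± 2.72), Stat6 (47.7 ± 3.08) and Stat5b (45.6 ± 1.14). Stat5b exceeded its paralog Stat5a (12.4 ± 0.528 RPKM) in every control.

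The GIMAP family, small GTPases that support lymphocyte survival, was fully expressed on chromosome 6, 8 of 8 genes with a median of 111 RPKM. Gimap4 held 464, 444 and 487 RPKM in controls 1, 2 and 3, Gimap3 316, 320.0 and 309, Gimap6 260.2, 239 and 227 and Gimap8 124, 128 and 129.7. Gimap5, whose loss depletes T cells in rodents, was the lowest of the family at 15.6 ± 1.60 RPKM.

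Of the leukocyte integrins, Itgb7 led at 205 ± 12.9 RPKM, then Itgb2 at 149 ± 5.18, Itgal at 38.1 ± 3.11 and Itga4 at 37.2 ± 2.00. These encode both chains of the gut-homing integrin alpha4beta7 (Itga4 and Itgb7) and of LFA-1 (Itgal and Itgb2), and in both pairs the beta chain held more RPKM than the alpha chain in every control. Itgb1, the alternative partner of the alpha4 chain, held 14.0 ± 0.879 RPKM, and the integrins of tissue-resident and myeloid cells Itgae (1.17), Itgam (0.201) and Itgax (0.0722) were low. Itgb3 held 31.3, 26.9 and 30.3 RPKM in controls 1, 2 and 3 together with Itgav at 5.03, 5.25 and 5.75, while Itga2b, its partner in platelets, held 2.09 CPM.

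Genes of the actin cytoskeleton, on which T cell migration rests, were all above 1 CPM (22 of 22) and held 3.78 ± 0.0452% of protein-coding RPKM. Actb held 3221 ± 206 RPKM, the actin-sequestering thymosins Tmsb4x and Tmsb10 1396 ± 183 and 517 ± 55.7, and Coro1a, needed for naïve T cell survival, 515 ± 44.6. The second cytoplasmic actin, Actg1, held 128 ± 10.3 RPKM, but actins share sequence with several pseudogenes and that value is uncertain.

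Genes of memory and effector cells were mostly low, 8 of 26 passing 1 CPM and 14 lying below it with some counts. Il2, Il4, Il17a and Ifng had no count in any control. Cd44, whose protein the gate excluded at the surface, held 35.2, 36.1 and 50.8 CPM in controls 1, 2 and 3, highest in control 3. Ly6c1 held 70.5, 45.9 and 54.8 CPM and Il2rb, the interleukin 2 and 15 receptor chain, 77.7, 79.5 and 73.0 CPM. Prf1, which encodes the pore protein perforin, held 34.1, 32.9 and 27.9 CPM, whereas the granzyme genes Gzmb and Gzma and the granule gene Nkg7 averaged 0.176, 0.671 and 0.938 CPM. Perforin mRNA was thus above 1 CPM in libraries in which Gzmb and Gzma were not.

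Of 14 regulatory T cell genes, 13 passed 1 CPM in every control. The median over those was 7.87 RPKM, beside 7.67 RPKM over all protein-coding genes above 1 CPM. Foxp3, which defines this lineage, held 22.2, 26.6 and 24.1 CPM, Il2ra (CD25) 36.7, 47.4 and 55.2 and Ikzf2 62.6, 77.2 and 82.4. The most abundant members per length were Izumo1r (41.5 ± 4.76 RPKM), Tnfrsf18 (35.7 ± 1.70), Tnfrsf4 (14.5 ± 1.22) and Capg (13.1 ± 3.26). The gate did not exclude CD25+ cells, and whether few cells held much of these transcripts or many held little was not tested.

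Of immediate early and activation genes 26 of 31 passed 1 CPM, and the median over those was 9.27 RPKM, beside 7.18 RPKM over all 31. Jund (88.3 ± 13.8 RPKM), the inhibitor Nfkbia (70.7 ± 9.15) and the mRNA decay factor Zfp36l2 (59.2 ± 4.39) led with Junb (46.4 ± 6.36). Of the genes that rise within minutes of stimulation or handling, Fos stood at 7.54, 5.55 and 4.94 CPM, Nr4a1 at 25.4, 23.3 and 26.9, Egr1 at 32.5, 30.8 and 34.8, Cd69 at 97.6, 103 and 87.8 and Hspa1a at 0.337, 0.479 and 2.10 CPM in controls 1, 2 and 3. Myc, which drives growth on activation, held 70.5, 75.04 and 68.7 CPM.

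Genes of division were mostly detected but low. Cdk1 held 0.787, 0.861 and 1.16 CPM, Ccnb1 1.35, 1.24 and 1.05 and Mki67 16.4, 15.4 and 11.9. The proliferation list summed to 727, 733 and 663 CPM, and Pcna (38.2 ± 2.85 RPKM), Tuba1b (25.3 ± 2.08), Mcm4 (23.2 ± 1.44) and Mcm6 (15.5 ± 0.624) were its most abundant members, genes of replication licensing, DNA synthesis and tubulin rather than mitosis. Of the 40 members 31 passed 1 CPM, and the median over those was 1.45 RPKM, beside 7.67 RPKM over protein-coding genes above 1 CPM. Replication-dependent histone genes, whose mRNAs lack a poly(A) tail and are kept by rRNA depletion, passed 1 CPM in 46 of 65 cases, led by Hist1h4h (160.2 ± 14.6 RPKM), Hist1h1c (146 ± 22.6), Hist1h4c (111 ± 13.9) and Hist1h4d (110.3 ± 3.94). Near-identical copies make the split within this family uncertain.

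The G1 machinery was selective. Of the D-type cyclins, Ccnd2 held 459, 420.2 and 543 CPM in controls 1, 2 and 3 and Ccnd3 199.8, 204 and 196, while Ccnd1 held 4, 4 and 2 counts. Of the inhibitors, Cdkn1b (p27), which keeps T cells out of cycle, held 40.0 ± 2.00 RPKM and Cdkn2d 29.8 ± 3.21, whereas Cdkn1a (p21) held 0, 0 and 3 counts and Cdkn2a and Cdkn2b none. Cdk4 held 24.4 ± 1.74 RPKM, its relative Cdk6 2.66 ± 0.134, and the S phase cyclin Ccne2 0.833 CPM. The pocket proteins that block E2F were all expressed, with Rbl2 at 18.3 ± 0.463 RPKM, Rb1 at 16.2 ± 1.28 and Rbl1 at 13.3 ± 0.355.

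Among the Bcl2 family, 12 of 18 genes passed 1 CPM. The protective Mcl1 held 146, 139.7 and 141 RPKM in controls 1, 2 and 3 and Bcl2 29.8, 31.2 and 30.9, while Bcl2l1 (Bcl-xL), which rises on activation, held 3.85, 3.44 and 3.39. The effectors Bax and Bak1 held 18.3 ± 2.34 and 9.71 ± 1.21 RPKM, and the killer Bcl2l11 (Bim) held 5.93 ± 0.247 RPKM. The p53 target Pmaip1 (Noxa) averaged 0.624 CPM, and Bok had no count.

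Of the glycolysis genes 19 of 29 passed 1 CPM, and most steps showed 1 main isoform. For hexokinase Hk1 held 16.1, 15.5 and 15.5 RPKM in controls 1, 2 and 3 against 0.339, 0.144 and 0.159 for Hk2. For aldolase Aldoa held 89.0 ± 7.73 RPKM and Aldoc 0.571 ± 0.377, for lactate dehydrogenase Ldha 103 ± 9.03 and Ldhb 13.7 ± 2.86, and for pyruvate kinase Pkm 89.0 ± 5.86 while Pklr had no count. For enolase Eno1 held 46.7 ± 5.45 RPKM, Eno3 8.15 ± 0.460 and Eno2 0.169 ± 0.0134. Phosphofructokinase was the exception, with Pfkp at 9.66 ± 0.00854 RPKM, Pfkl at 7.68 ± 0.286 and Pfkm at 4.98 ± 0.0549. The glucose transporters Slc2a1 and Slc2a3 held 8.20 ± 0.861 and 6.02 ± 0.371 RPKM and Slc2a4 had no count. Gapdh, Pgk1, Tpi1 and Pgam1 lay at 38.7, 20.2, 11.4 and 5.17 RPKM, and since these genes have many processed copies from which reads cannot be separated, their values are uncertain.

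Genes of the respiratory chain were expressed from both genomes. The mitochondrially encoded proteins took 0.978, 1.09 and 1.06% of counts and varied little between libraries, with a median CV of 3.36% over the 7 of 13 genes above 1 CPM. mt-Co1 held 4663 ± 107 RPKM, the highest mean of all protein-coding genes, although Eef1a1 was the higher of both in control 1 (4873 beside 4603 RPKM). Within the family followed mt-Nd1 (1308 ± 43.9), mt-Cytb (983 ± 21.8) and mt-Nd2 (265 ± 2.75). mt-Co2, mt-Co3, mt-Atp6, mt-Atp8, mt-Nd3 and mt-Nd4l averaged at most 0.241 CPM, although they are cut from the same precursor as the abundant ones. Nuclear copies of mitochondrial DNA share sequence with such genes, so these 6 values are uncertain and no level is read from them. The share of the family and the top rank of mt-Co1 are uncertain for the same reason. Nuclear genes of complexes I to V passed 1 CPM in 36 of 37, 4 of 4, 9 of 9, 11 of 18 and 17 of 17 cases. Examples were Ndufa13 of complex I (63.6 ± 10.2 RPKM), Sdha of complex II (51.6 ± 2.76), Uqcrh of complex III (117 ± 16.0), Cox7a2l, a factor that joins complexes III and IV (201 ± 25.5), and Atp5b of the ATP synthase (107 ± 7.16). Of the mitochondrial ribosomal protein genes, 77 of 78 passed, at a median of 8.52 RPKM, far under the cytoplasmic ribosomal protein genes.

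MHC class I genes were abundant, 14 of 14 above 1 CPM with a median of 55.4 RPKM. B2m, the light chain, held 2226, 2047 and 1815 RPKM in controls 1, 2 and 3 and the heavy chains H2-K1 and H2-D1 766, 759 and 646 and 597, 569.9 and 483, each highest in control 1 and lowest in control 3. Heavy chain genes share reads with one another and their split is uncertain. Proteasome genes passed in 48 of 50 cases, and those of the interferon-inducible proteasome and its activator were among the highest, Psme1 at 105 ± 13.1 RPKM, Psme2 at 83.9 ± 7.49 and Psmb8 at 75.9 ± 7.80. The subunit that Psmb8 replaces, Psmb5, held 13.9 ± 3.15 RPKM.

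Interferon-stimulated genes were detected broadly, 38 of 40 above 1 CPM with a median of 13.4 RPKM over those, and Oas1g had no count. Ifi27l2a held 191, 80.9 and 84.4 CPM, highest in control 1, followed per length by Ly6e (98.7 ± 13.8 RPKM), Ifi47 (63.2 ± 4.97) and Igtp (57.2 ± 6.30), while Mx1 and Rsad2 held 3.86 and 5.28 CPM. The list summed to 3453, 2953 and 2803 CPM.

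Genes of cap formation and cap binding were all above 1 CPM (20 of 20) at a median of 10.5 RPKM. Ncbp1, the large subunit of the nuclear cap-binding complex, led at 35.9 ± 1.13 RPKM, then the TOP mRNA-binding protein gene Larp1 at 29.9 ± 1.66, Pcif1 at 18.3 ± 1.51 and Larp7 at 15.1 ± 1.77. The capping enzyme Rngtt held 72.5, 77.2 and 82.0 CPM. Rnmt, which methylates the cap guanosine, held 49.3, 56.3 and 55.1 CPM or 7.30 ± 0.513 RPKM, rank 5137 among protein-coding genes, and Ramac, its activating subunit, held 29.2, 24.9 and 24.5 CPM or 15.1 ± 1.51 RPKM. The methyltransferase of the first transcribed nucleotide, Cmtr1, was the lowest of the list at 1.21 ± 0.0582 RPKM. Of 3 genes used as qPCR references in the study, Actb varied with a CV of 6.40%, Tbp (39.0, 46.9 and 48.8 CPM in controls 1, 2 and 3) with 11.5% and Ddx56 (45.3, 44.3 and 42.8 CPM) with 2.86%. Ddx56 was the steadiest of these 3 and Tbp, lowest in control 1, the least steady.

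Genes of zinc finger transcription factors were many but weak. Of 365 numbered Zfp genes 278 passed 1 CPM, and the median over those was 5.18 RPKM. Zfp207 (49.0 ± 3.56 RPKM), Zfp292 (38.1 ± 1.77), Zfp869 (35.4 ± 0.148) and Zfp740 (29.5 ± 0.349) were the highest, and 28 members had no count.

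Markers of other cells that the sorted sample could hold were measured in the same way. The B cell list summed to 534, 542 and 473 CPM with 16 of 18 members above 1 CPM, but Ighm alone held 331, 313 and 270.1 CPM and Cd37, which T cells also express, 112, 132 and 116. Without both the sum was 89.97, 97.0 and 87.2 CPM, and the defining genes Cd79a, Ms4a1 and Pax5 held 4.51, 8.02 and 6.28 CPM. Per length, the heavy chain gene Ighm held 176, 166 and 143 RPKM in controls 1, 2 and 3 and the light chain gene Igkc 23.04, 24.1 and 20.2 RPKM, Ighm being the higher of both in every control. MHC class II transcripts were low, with Cd74 at 48.9, 46.8 and 36.7 CPM and H2-Ab1 at 16.5, 17.5 and 11.5.

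Myeloid markers summed to 243, 198 and 190.1 CPM, of which Ctss, a protease gene, gave 231, 187 and 177. Lyz2, Csf1r and Adgre1 held 2.63, 0.823 and 0.206 CPM and Cd14 had no count. The neutrophil list summed to at most 1.05 CPM, and Elane, Ly6g, Cxcr2, Ngp and Camp had no count. The dendritic list reached 413 ± 47.3 CPM mostly through Ccr7, which naïve T cells express, with Batf3 and Cd209a at 0. The plasma cell list reached 49.1 ± 3.81 CPM, of which Xbp1 gave 41.9 and Jchain 1.37. The remaining lists summed to 47.7 ± 8.30 CPM for natural killer cells, mostly Prf1 and Klrd1, 15.3 ± 2.06 for erythroid cells, 2.83 ± 0.886 for stroma and endothelium, and 0.804 ± 0.119 for mast cells and basophils. For platelets, Itgb3 gave all but 2.09 CPM of the sum, and Pf4, Ppbp, Gp9, Gp1ba and Treml1 had no count.

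Among markers of other T cells, Cd8b1 held 13.2, 12.1 and 13.0 RPKM in controls 1, 2 and 3 and Cd8a 0.742, 0.763 and 0.752, both far below the 163, 156 and 156 RPKM of Cd4. Ctsw, a protease gene listed for CD8 cells, held 30.8 ± 3.95 RPKM. Trdc, the constant region of gamma delta T cells, held 8.88, 7.37 and 6.63 CPM. Of the thymocyte genes, Ptcra had no count and Rag1 and Rag2 held 1, 0 and 0 and 0, 1 and 0 counts in controls 1, 2 and 3, while Dntt, which encodes the terminal transferase of V(D)J joining, held 11.9, 9.48 and 9.15 CPM. The Y-linked genes Ddx3y (152, 179 and 187 CPM), Kdm5d (122, 123 and 115), Eif2s3y (111, 96.4 and 110.4) and Uty (71.3, 77.8 and 85.4) were expressed in each library, and Xist, which silences the inactive X chromosome of females, held 0, 1 and 1 counts.

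Replicates lay close together across the range of levels. Over the 11607 genes above 1 CPM in every control, the median CV was 8.81%, and 85.4% of genes varied by less than 20%. The common biological coefficient of variation from edgeR, the spread beyond counting error, was 8.21%. The median CV fell from 21.6% between 1 and 3 CPM to 5.26% between 100 and 300 CPM, and was 10.7% over the 78 genes with a mean above 1000 CPM. Counting error alone would give 18.97%, 2.18% and 0.706% in these ranges for 3 libraries. The most abundant genes therefore varied more, against their counting error, than genes of middling level. Pairwise Pearson correlations of log2 CPM across genes, which are not independent replicates, lay between 0.989 and 0.993, lowest for controls 1 and 3, where 98 genes differed by more than 2-fold.

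**Figure D4:**
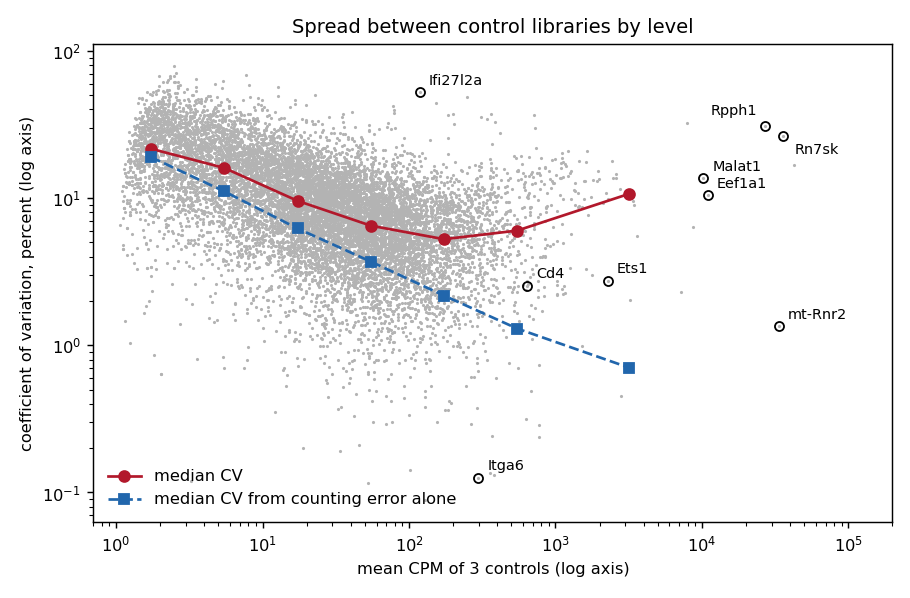
CV over the 3 controls (vertical axis, percent, log scale) against mean CPM (horizontal axis, log scale) for each gene above 1 CPM in every control, in grey. Red points give the median CV per range of level and blue squares the median that counting error alone would give, from 18.97% at the low end to 0.706% above 1000 CPM. Ifi27l2a, Rpph1 and Rn7sk lie far above the red line and mt-Rnr2 below it.

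The 10 most variable of the 3820 genes with a mean of at least 50 CPM were mostly small RNAs. Ifi27l2a (CV 52.6%) came first, then Gm24119 (48.9%), Gm22513 (44.1%), Gm26870 (42.3%), Snora23 (39.5%), Scarna6 (37.9%), Gm24407 (37.6%), Gm25395 (37.6%), Snord17 (36.5%) and Gm26448 (36.4%). Control 1 was the highest library for 9 of these genes, and for Gm26870 it was control 3. The 10 with the lowest CVs were Pfkp, Dhx40, Itga6, Dgkd, Rassf2, Gucd1, Dync1h1, Pdcd4, Actr3 and Arhgap12, with CVs up to 0.291%. Itga6, for example, held 2644, 3110 and 2834 counts, which scale to 297, 298 and 298 CPM. These genes agreed more closely than counting error alone would give for most genes of their level. They were picked as the lowest CVs of 3820 genes, so their closeness does not show that they are steadier genes.

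Some families differed together between libraries. Relative to control 1, the median log2 ratio in control 3 was -0.66 for polymerase III transcripts, -0.49 for scaRNA genes, -0.41 and -0.39 for small and large subunit ribosomal protein genes, and -0.40 for interferon-stimulated genes, beside -0.02 for all protein-coding genes. For scaRNA genes the median of control 2 over control 1 was lower still, at -0.62. For snoRNA and snRNA genes it was -0.44 and -0.58, beside -0.39 and -0.17 for control 3. Among the 79 genes of the cytoplasmic ribosome, all but 1 had fewer CPM in control 3 than in control 1, and control 2 lay between with -0.30 and -0.27. The opposite held for TEC loci (0.47), sense intronic transcripts (0.41) and nuclear lncRNAs (0.32). T cell signalling genes (0.02) and GIMAP genes (-0.06) differed little. Scaling by library size alone raised every log2 ratio of control 3 over control 1 by 0.11, which turned the sign for GIMAP genes and all protein-coding genes but for none of the other families just named.

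**Figure D5:**
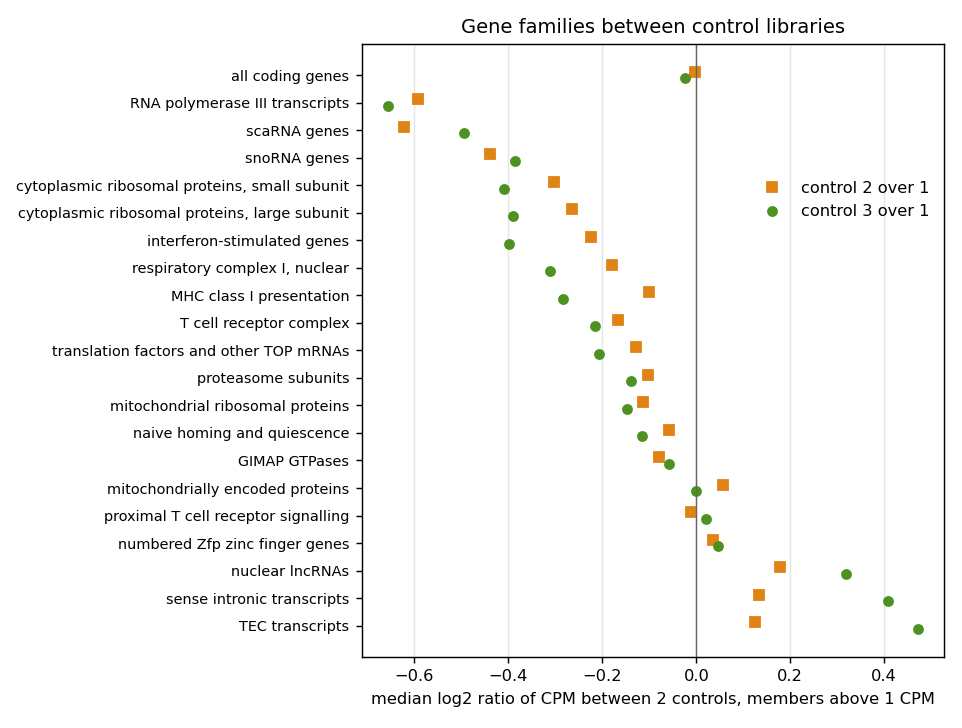
Median log2 ratio of CPM between controls (horizontal axis) for members above 1 CPM of each family, control 2 over 1 as orange squares and control 3 over 1 as green circles. Polymerase III transcripts, small nucleolar and Cajal body RNAs and ribosomal proteins lie left of zero. TEC and sense intronic transcripts lie right of zero and are furthest from it for control 3.

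Among protein-coding genes, differences between libraries moved with the length of the gene. Non-coding families were not split by length. Over protein-coding genes above 1 CPM split into 8 bins by exon length, the median log2 ratio of control 3 over control 1 ran from -0.22 in the shortest bin (up to 2087 bases) through -0.01 in the fifth to 0.12 in the longest (from 9306 bases). By GC content of the exons it ran from 0.07 in the lowest bin to -0.13 in the highest. The share of fragments outside annotated exons of the same strand was likewise lowest in control 1 and highest in control 3. The share that mapped to several places was 14.3, 11.5 and 9.90% of all fragments in controls 1, 2 and 3. The part of length, GC content and unspliced RNA in the differences between families was not tested. The median CV was 14.2% over large and 15.05% over small subunit ribosomal protein genes, beside 6.02% over all genes between 300 and 1000 CPM.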

How the data were processed

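RNA-seq of the 3 control samples was analysed, and the Rnmt cKO samples and columns were not used. RNA was extracted with Trizol, depleted with Ribo-Zero Gold, and sequenced as paired ends after TruSeq library preparation. The authors aligned reads with STAR 2.5.2b, per the submitters' processing notes, to mm10 (GRCm38) with GENCODE genes and deposited STAR's raw gene counts, which leave out fragments that map to several places and of which the sense column was used here (46488 of 46983 IDs were found in the GENCODE vM21 annotation). The authors also deposited a normalised signal per gene after their edgeR filter, which equalled the sense counts divided by 1 constant per library for all 11221 genes, within 0.1%, and was not used further. Its columns of log2 ratio, mean abundance, p-value and FDR hold the authors' knockout comparison and were not used.

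Sense counts were scaled with TMM (edgeR 4.0.16, R 4.3.3) over all genes, and RPKM used the union of annotated exons. The dispersion was estimated over genes above 1 CPM in every control. Log2 ratios used a prior of 0.5 CPM. With 1 group no test was run. The dispersion estimate was tested on simulated data. Wilson 95% intervals and limits from 3 counts cover counting error only. Named were the 5 markers, the 10 leading genes of each ranking, the 4 leading, the undetected and (for paralogs) the detected members of each list, the qPCR reference genes, and Rnmt with its cofactor. Other genes were named after their values were seen. Members and lists were chosen with earlier results of these data known. Alternatives were DESeq2 1.42.0 size factors, library size alone, either-strand counts, other filters, lengths and denominators, and each replicate left out. Some genes that this rule would name are not reported here.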

Additional observations from a re-analysis of the deposited data

Results flagged for a closer look

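Fragments on the strand opposite to 3 annotated genes were many, although no gene is annotated on that strand there, and the comparisons above used sense counts only. Gm10800 held 12980, 21458 and 28309 opposite-strand counts in controls 1, 2 and 3, beside 2203, 3146 and 4499 sense counts. Gm21738 held 1235, 1951 and 2646 opposite-strand counts, beside 228, 318 and 468. Gm10801 held 1188, 2064 and 2709, beside 175, 275 and 376. Each value was lowest in control 1 and highest in control 3. The libraries' share of fragments outside annotated exons of the same strand had its lowest and highest values in the same libraries. That share includes these opposite-strand fragments, so the 2 are not independent. What was counted there was not tested.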

How the results depend on the processing

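Of 72 alternative values for 12 results, 62 moved by less than the spread between replicates (for counts of genes, by less than 1.5 times). For both measures of spread, the limit was instead the SD over the values with each replicate left out. Those values were thus judged against their own SD. A change of direction could not be assessed, because shares, levels, counts of genes and measures of spread have no direction to reverse. For shares and levels, leaving out a replicate was no test of stability. Scaling aside, the mean of the remaining libraries cannot differ from the full mean by as much as the SD. The tally of 62 therefore includes values that could not have moved. With protein-coding counts as the denominator, the share of the 100 most abundant genes was 19.5% in place of 31.4%, that of ribosomal protein genes 9.76% in place of 7.89%, and that of mitochondrially encoded proteins 1.29% in place of 1.04%, because the denominator is smaller and, for the first, non-coding genes no longer enter. With the mean transcript length in place of the exon union, ribosomal protein genes held 19.7% of protein-coding RPKM. Without Gm26917 and Gm42418, an alternative chosen after seeing the data, lncRNA genes held 1.79% of counts in place of 6.14%. The median CV was 29.1% with no filter on low counts and 6.96% above 10 CPM. Leaving out each replicate in turn gave a median CV of 6.15 to 8.70% and a common biological coefficient of variation of 6.72 to 10.2%, the highest without control 2. A CV from fewer libraries tends to be lower, so a lower median CV here is no sign of closer agreement. The number of genes detected ran from 8090 (above 10 CPM) to 15399 (at least 1 count in every control). The shares of protein-coding and lncRNA genes were not recomputed with protein-coding counts as the denominator, which would fix the first at its maximum. No paired analysis was possible because only 1 group is described. Genes with near-identical copies are undercounted to an unknown extent, and genes below a few CPM are limited by depth.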
